A study of Mus musculus with 9 samples.

Results

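The 10 genes Atf4, Atf5, Atf3, Ddit3, Trib3, Asns, Psat1, Phgdh, Mthfd2 and Fgf21 belong to the ATF4 branch of the integrated stress response. They were chosen by name and are 10 of the 55416 genes in the deposited table. Their messenger RNA was measured by RNA sequencing in mouse gastrocnemius, a calf muscle, collected from the left leg. The mice had been randomised to 3 groups, each with 3 libraries. SED mice stayed sedentary. AET mice had aerobic exercise training on a motorized treadmill for 60 min a day, 5 days a week, over 8 weeks. AET_MET mice had the same training and were given metformin, an oral glucose-lowering drug, at 2 mg/mL in the drinking water. Metformin without training was not analysed here, so its contrast holds within trained mice only. The sources used here give no strain, sex or age, nor whether each library came from a different mouse. The p-values therefore measure the spread between libraries.

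In the integrated stress response, several kinases phosphorylate the translation initiation factor eIF2, each in answer to another stress such as amino acid shortage, misfolded protein in the endoplasmic reticulum, viral RNA or mitochondrial damage. General protein synthesis then falls while the ATF4 mRNA is translated more, so ATF4 is set largely at the level of translation. ATF4 is a bZIP transcription factor that pairs with C/EBP proteins and turns on genes for amino acid synthesis and transport, serine and one-carbon metabolism, and the feedback that ends the response. In skeletal muscle, mitochondrial stress is known to raise this programme together with the secreted hormones FGF21 and GDF15. The measurements here are of mRNA and hold no value for eIF2 phosphorylation or ATF4 protein.

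Library totals ran from 15434424 to 25355877 expected counts, and levels are given as TMM-scaled CPM (counts relative to the library's scaled total). Markers of muscle fibers summed to between 146500 and 169400 CPM in every library, while T and B cell and liver markers stayed below 0.41 CPM. Marker sums of some other cell types moved with the groups. The 8 Schwann cell markers summed to 64.9 to 73.9 CPM in SED, 118 to 199 in AET and 49.7 to 108 in AET_MET, and S100b and Sox10 among them rose in AET. In the same order of groups, the 7 fibroblast markers summed to 1020 to 1387, 836 to 914 and 707 to 774 CPM, and the 8 slow fiber markers to 837 to 1013, 340 to 1280 and 89.1 to 724 CPM. The 7 tenocyte markers summed to 315 to 518, 137 to 311.5 and 92.7 to 216 CPM. The 5 satellite cell markers summed to 45.2 to 50.4, 29.4 to 29.6 and 26.3 to 38.5 CPM, with Sdc4 the only one that passed the test. The part of these cells in the results below was not tested, and in bulk muscle fewer cells of a type and less RNA per cell cannot be told apart.

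Of the 10 genes, Atf4 itself was the one that passed the test, and it did so in 1 comparison. Its mRNA fell in trained muscle, and the libraries with metformin lay between the trained and the sedentary ones. None of the other 8 genes abundant enough to test was called. Of the 9 tested, 6 had an estimate above 0 and 3 below in AET against SED. A gene was called at an adjusted p under 0.05 in edgeR's quasi-likelihood test over 13944 genes. In AET against SED 1 of the 9 was called, beside 12.3% of all genes tested. In AET_MET against SED none was called, beside 4.59% of all genes, and in AET_MET against AET none was called, beside 3.43%. In each of the latter comparisons 3 of the 9 had an unadjusted p under 0.05 in edgeR. The share of all genes at that unadjusted threshold was not computed. DESeq2 called 2 of the 9 in each, beside 897 and 876 of the 13928 genes it tested. With limma voom 0 were called, beside 529 and 429 of 13944 genes. The median log2 change over the 9 genes was 0.043, 0.0013 and -0.31 in the 3 comparisons, beside 0.011, 0.0026 and 0.0007 over all genes.

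**Figure D1:**
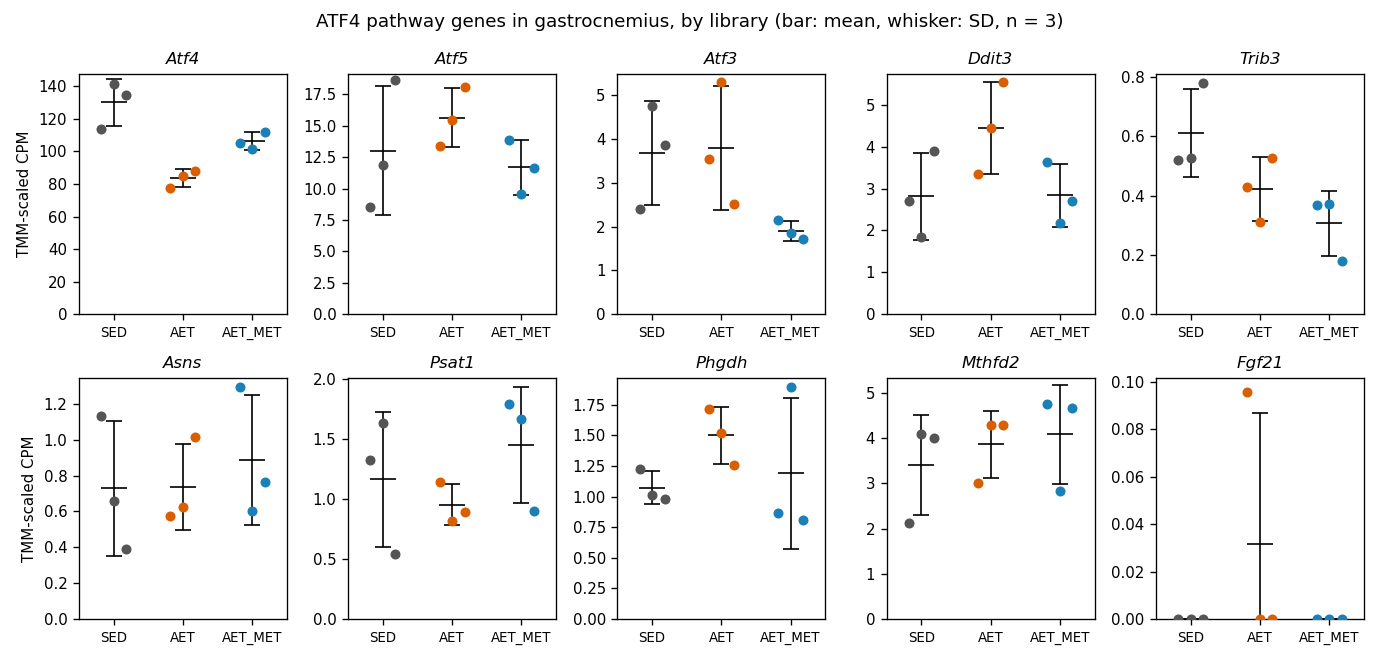
Each panel shows 1 gene, with TMM-scaled CPM on a vertical axis that starts at 0 and the groups SED, AET and AET_MET along the horizontal axis. Points are libraries, bars are means and whiskers are SD (n = 3); Atf4 is the gene whose 3 groups do not overlap, while Fgf21 is at 0 in all but 1 library.

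Atf4 (chromosome 15, 80255184 to 80257541, plus strand in GRCm38) stood at 114, 141 and 135 CPM in the SED libraries, 77.7, 85.0 and 88.2 in AET and 105, 101 and 112 in AET_MET. Every AET library was below every AET_MET library, and every AET_MET library was below every SED library. The mean was 130.0 ± 14.4 CPM (SD, n = 3) in SED and 83.6 ± 5.38 in AET, so trained muscle held 0.643 times the sedentary level. The log2 change was -0.64 ± 0.090 (SE), with a 95% interval of -0.83 to -0.44 and an edgeR adjusted p of 0.00104. This call was made under all 18 alternative settings, with log2 changes from -0.73 to -0.57. With metformin the mean was 106 ± 5.46 CPM. It differed from SED by -0.29 ± 0.090 (interval -0.49 to -0.10, edgeR adjusted p = 0.086) and from AET by 0.35 ± 0.090 (interval 0.15 to 0.54, edgeR adjusted p = 0.0556).

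Neither difference of Atf4 in the metformin group passed the threshold, and both lay close to it. Against AET it was called with DESeq2 (adjusted p = 0.016), and 6 of 18 alternatives called it, with edgeR, limma or DESeq2 adjusted p from 0.016 to 0.199. Against SED 3 of 18 called it, DESeq2 among them (adjusted p = 0.0468), over a range of 0.0404 to 0.278. Without SED replicate 1, the lowest of the SED libraries, both differences were called (0.0448 and 0.0404). The satellite cell, fibroblast and tenocyte marker sums given above were also lower in every AET than in every SED library, and those of Schwann cells, smooth muscle and pericytes, adipocytes, neutrophils, and T and B cells were higher. Their part in the change of Atf4 was not tested.

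**Figure D2:**
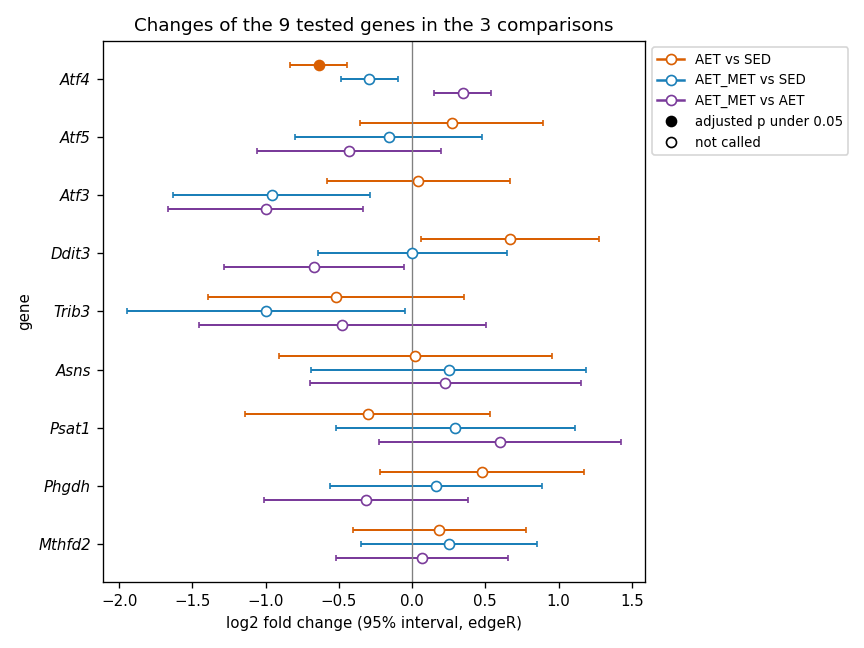
The horizontal axis gives the log2 fold change of each tested gene with its 95% interval from edgeR, for AET vs SED, AET_MET vs SED and AET_MET vs AET; filled points have an adjusted p under 0.05. The filled point is Atf4 in AET vs SED at -0.64, and the intervals of the low-count genes such as Trib3 and Asns are several times as wide as those of Atf4.

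Among the other bZIP factors, Atf5 (chromosome 7, 44812256 to 44816658, minus strand), which is controlled at translation like ATF4 and serves the mitochondrial stress response, was next in level. It stood at 8.55, 11.8 and 18.6 CPM in SED, 13.4, 15.5 and 18.1 in AET and 13.9, 9.54 and 11.6 in AET_MET. The SED libraries spanned the values of both trained groups, and no comparison was called (log2 change 0.27 ± 0.27 for AET against SED, interval -0.35 to 0.89, edgeR adjusted p = 0.557). Exons of Il4i1 and Nup62 on the other strand overlap Atf5, and the sources used here do not say whether reads were counted by strand, so its level is uncertain.

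Atf3 (chromosome 1, 191170296 to 191218039, minus strand), a stress-induced bZIP factor and ATF4 target, was low in the metformin group. Its libraries were at 2.41, 4.76 and 3.86 CPM in SED, 3.53, 5.31 and 2.52 in AET and 2.16, 1.85 and 1.71 in AET_MET. All 3 AET_MET libraries were below all 6 others, while SED and AET overlapped. The log2 change of AET_MET was -0.96 ± 0.31 against SED (interval -1.63 to -0.28, edgeR adjusted p = 0.104). Against AET the means were 1.91 ± 0.231 and 3.79 ± 1.42 CPM (SD, n = 3), with a log2 interval of -1.67 to -0.33 and an edgeR adjusted p of 0.0894. Neither was called by edgeR. DESeq2 gave adjusted p of 0.0491 and 0.0374, and without SED replicate 1 edgeR gave 0.0498 against SED; the ranges over all alternatives were 0.0491 to 0.303 and 0.0374 to 0.269. Between AET and SED the change was 0.043 ± 0.28 (interval -0.58 to 0.67, edgeR adjusted p = 0.939).

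Ddit3 (chromosome 10, 127290774 to 127296288, plus strand) encodes CHOP, the factor that links a prolonged stress response to cell death. It stood at 2.69, 1.85 and 3.91 CPM in SED, 3.341, 4.45 and 5.56 in AET and 3.64, 2.18 and 2.69 in AET_MET. AET had the highest mean but overlapped with both other groups. Its log2 change was 0.67 ± 0.28 for AET against SED (interval 0.059 to 1.28, edgeR adjusted p = 0.14) and -0.67 ± 0.28 for AET_MET against AET (interval -1.28 to -0.053, edgeR adjusted p = 0.199). The estimate for AET against SED was above 0 where that of Atf4 was below 0; this contrast between the genes was not tested. Exons of Mars and Gm4189 on the other strand overlap Ddit3, as does a second gene identifier with the symbol Ddit3 on the same strand, so its level is uncertain whether or not strand was used.

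Trib3 (chromosome 2, 152337422 to 152344032, minus strand), a pseudokinase that is induced by ATF4 and CHOP and restrains them in turn, was rare. It stood at 0.520, 0.528 and 0.782 CPM in SED, 0.430, 0.312 and 0.527 in AET and 0.370, 0.370 and 0.180 in AET_MET. Every AET_MET library was below every SED library, and AET overlapped with both. The log2 change of AET_MET against SED was -0.9973 ± 0.44 (interval -1.94 to -0.050, edgeR adjusted p = 0.218), and that of AET against SED was -0.52 ± 0.41 (interval -1.40 to 0.35, edgeR adjusted p = 0.429). No library held more than 16 counts of Trib3, and its intervals are the widest of the 9 genes in the comparisons with AET_MET.

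ATF4 with a C/EBP partner binds the C/EBP-ATF response element, whose core is commonly written TGATGNAA. The promoter windows of RefSeq (GRCm38.p6, 250 bases before to 50 after each gene start) were searched for TGATGNAA and for the looser TGNTGNAA, which contains it, on both strands. TGATGNAA was found for 4 of the 10 genes (Asns, Atf3, Fgf21 and Trib3), beside 4.51% of 27025 genes with a window. TGNTGNAA was found for 6 of 10, with Phgdh and Psat1 added, beside 16.6% of genes. Of 4 other targets with a window that were searched, Chac1 held the stricter form, Sesn2 the looser one alone, and Ppp1r15a and Cebpb neither. Shown are the stricter matches before the gene start, those of Chac1 included, and the 8 looser letters that Trib3 and Psat1 share, because these genes are known for their answer to ATF4. The looser match of Phgdh and a second one of Fgf21 are not shown. Each is read 5′ to 3′ on the gene's strand, and the capitals mark the match or its reverse complement.
Atf3: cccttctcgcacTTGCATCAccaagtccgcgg
Fgf21: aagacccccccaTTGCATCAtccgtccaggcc
Chac1: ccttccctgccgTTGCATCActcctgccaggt
Asns: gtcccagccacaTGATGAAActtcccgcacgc
Trib3: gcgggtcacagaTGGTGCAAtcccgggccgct
Psat1: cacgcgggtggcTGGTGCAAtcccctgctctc
Atf3, Fgf21 and Chac1 carry the same 8 letters, TTGCATCA. Trib3 and Psat1 share TGGTGCAA, which fits the looser form. The stretches lie at chr1:191183424-191183455 (minus strand, 110 bases before the start) for Atf3, chr7:45615610-45615641 (minus strand, 139 bases before the start) for Fgf21 and chr2:119351037-119351068 (plus strand, 193 bases before the start) for Chac1. That of Asns is at chr6:7693213-7693244 (minus strand, 23 bases before the start), that of Trib3 at chr2:152344074-152344105 (minus strand, 33 bases before the start) and that of Psat1 at chr19:15925176-15925207 (minus strand, 136 bases before the start). Starts here are those of RefSeq. The gene spans given with each gene come from GENCODE and begin elsewhere for several of them: the stretches of Atf3, Asns and Psat1 lie inside those spans. The stricter letters in Trib3 lie after its RefSeq start and outside its GENCODE span. A match is a description of the letters and not a measured binding site.

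The biosynthetic targets were low, and none of them was called. Asns (chromosome 6, 7675169 to 7693254, minus strand), which encodes asparagine synthetase, was at 1.13, 0.661 and 0.391 CPM in SED, 0.573, 0.625 and 1.01 in AET and 1.29, 0.602 and 0.763 in AET_MET. All groups overlapped, and its interval for AET against SED ran from -0.91 to 0.95, which spans changes of close to 2-fold either way. Psat1 (chromosome 19, 15904678 to 15947337, minus strand), the aminotransferase of serine synthesis, was at 1.32, 1.63 and 0.537 CPM in SED, 1.15, 0.820 and 0.892 in AET and 1.79, 1.67 and 0.898 in AET_MET. Its log2 change for AET_MET against AET was 0.60 ± 0.38 (interval -0.23 to 1.42, edgeR adjusted p = 0.388), and the groups overlapped.

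Phgdh (chromosome 3, 98313170 to 98339990, minus strand), the first enzyme of serine synthesis from glycolysis, was at 1.23, 1.01 and 0.977 CPM in SED, 1.72, 1.52 and 1.26 in AET and 0.863, 1.90 and 0.808 in AET_MET. Every AET library was above every SED library, and the AET_MET libraries held both the highest and the lowest values. The log2 change of AET against SED was 0.48 ± 0.32 (interval -0.22 to 1.18, edgeR adjusted p = 0.357), which was not called. Mthfd2 (chromosome 6, 83305691 to 83325908, minus strand), a mitochondrial one-carbon enzyme, was at 2.13, 4.09 and 4.01 CPM in SED, 3.01, 4.29 and 4.30 in AET and 4.75, 2.83 and 4.67 in AET_MET. Its groups overlapped, with log2 changes of 0.19 ± 0.27, 0.25 ± 0.27 and 0.066 ± 0.27 in the 3 comparisons (edgeR adjusted p = 0.696, 0.656 and 0.914). Mthfd2 had the narrowest interval of these 4 enzymes for AET against SED, -0.41 to 0.78, and a 2-fold change lies outside it.

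Fgf21 (chromosome 7, 45613886 to 45615490, minus strand), the secreted hormone of this programme, was close to undetected. It had 2 expected counts in AET replicate 1 and 0 in the other 8 libraries, and was left out of the test by the filter on low counts. A count of 0 allows up to 3 counts, which is 0.117 to 0.185 CPM in these libraries and covers counting error only. Gdf15, the other secreted hormone of the programme, was at most 0.0473 CPM in any library. Without the filter no comparison of Fgf21 was called (edgeR adjusted p = 0.589, 1 and 0.681).

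The levels of the genes spanned a wide range. Per kilobase of exon, and averaged over the 9 libraries, Atf4 was at 45.2 CPM (libraries 33.0 to 60.0) and Atf5 at 6.75 (4.29 to 9.34). Ddit3 followed at 1.97 (1.08 to 3.24), then Atf3 at 1.45 (0.792 to 2.46) and Mthfd2 at 1.09 (0.610 to 1.36). The levels of Atf4, Atf5 and Ddit3 did not overlap between any libraries. Ddit3, Atf3 and Mthfd2 overlapped with each other, as did Mthfd2 with Phgdh at 0.504 (0.325 to 0.764) and Phgdh with Asns. Asns at 0.287, Psat1 at 0.280 and Trib3 at 0.210 were not apart beyond their spread, and Fgf21 was lowest at 0.0112. These levels depend on the exon lengths of the annotation, the union of all listed transcripts.

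**Figure D3:**
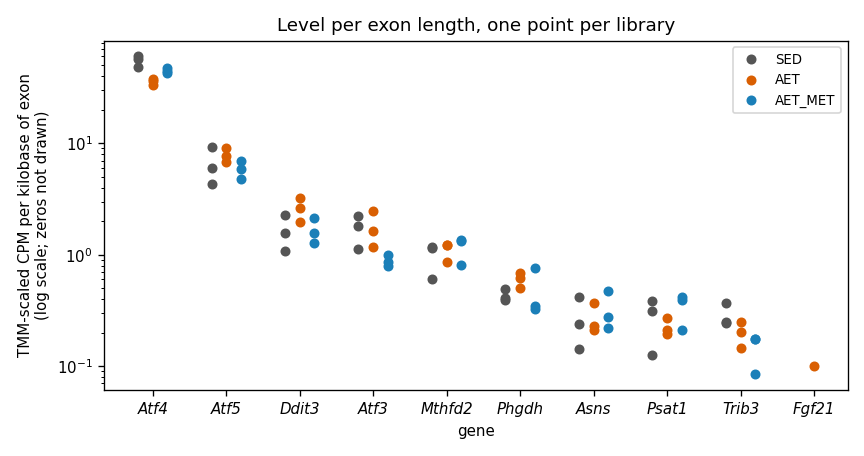
The vertical axis is a log scale of TMM-scaled CPM per kilobase of exon, and each point is 1 library of SED, AET or AET_MET. Atf4 lies between 33.0 and 60.0 in every library, while Asns, Psat1 and Trib3 lie below 0.5; zeros, 8 of the 9 values of Fgf21, are not drawn.

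Upstream of ATF4, 1 of the eIF2 kinases passed the test. Eif2ak2, which encodes the RNA-sensing kinase PKR, rose from 3.45, 4.54 and 4.54 CPM in SED to 6.06, 5.58 and 6.12 in AET (log2 change 0.50 ± 0.14, edgeR adjusted p = 0.0333). DESeq2 did not call it (adjusted p = 0.0534; 0.0204 to 0.112 over all alternatives), and the call was lost without SED replicates 1 or 2 or AET replicates 1, 2 or 3 (adjusted p 0.0534 to 0.112). It was the 1 call among 10 kinases and activators, beside 5.82% of all genes called higher. In AET against SED, 1 of the 10 estimates was above 0 and 9 were below. Their median log2 change was -0.15, beside 0.011 over all genes. Eif2ak1 (HRI) lay at 32.3 to 37.96 CPM in SED, 30.1 to 34.7 in AET and 35.1 to 36.5 in AET_MET. Eif2ak3 (PERK) lay at 4.36 to 6.64, 5.06 to 7.14 and 5.14 to 5.97 CPM, and Eif2ak4 (GCN2) at 5.37 to 6.33, 4.61 to 4.87 and 5.14 to 5.92. For Eif2ak4 every AET library was below every SED library, but neither edgeR nor any alternative called that difference.

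Both regulatory subunits of the eIF2 alpha phosphatase fell with training. Ppp1r15a encodes GADD34, the inducible subunit that ends the stress response and is itself an ATF4 target. It was at 47.1, 55.1 and 46.4 CPM in SED, 19.0, 17.5 and 21.2 in AET and 18.7, 30.8 and 22.3 in AET_MET. Both trained groups lay below SED without overlap, with log2 changes of -1.36 ± 0.16 (edgeR adjusted p = 0.000974) and -1.05 ± 0.16 (edgeR adjusted p = 0.0085); the latter was lost without AET_MET replicate 3 (adjusted p 0.0646). Ppp1r15b, the constitutive subunit, was at 39.1, 41.4 and 33.9 CPM in SED, 27.4, 26.6 and 23.6 in AET and 28.7, 31.4 and 29.3 in AET_MET. Its log2 change was -0.56 ± 0.091 in AET (edgeR adjusted p = 0.00238) and -0.36 ± 0.091 in AET_MET (edgeR adjusted p = 0.044). The latter call was lost without SED replicates 1 or 2, AET replicates 2 or 3 or AET_MET replicates 1, 2 or 3 (adjusted p 0.052 to 0.172), and 11 of 18 alternatives did not make it. These 2 were the calls among 12 genes for eIF2, its exchange factor and its phosphatase, and both were lower, beside 6.45% of all genes in AET and 2.42% in AET_MET.

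**Figure D4:**
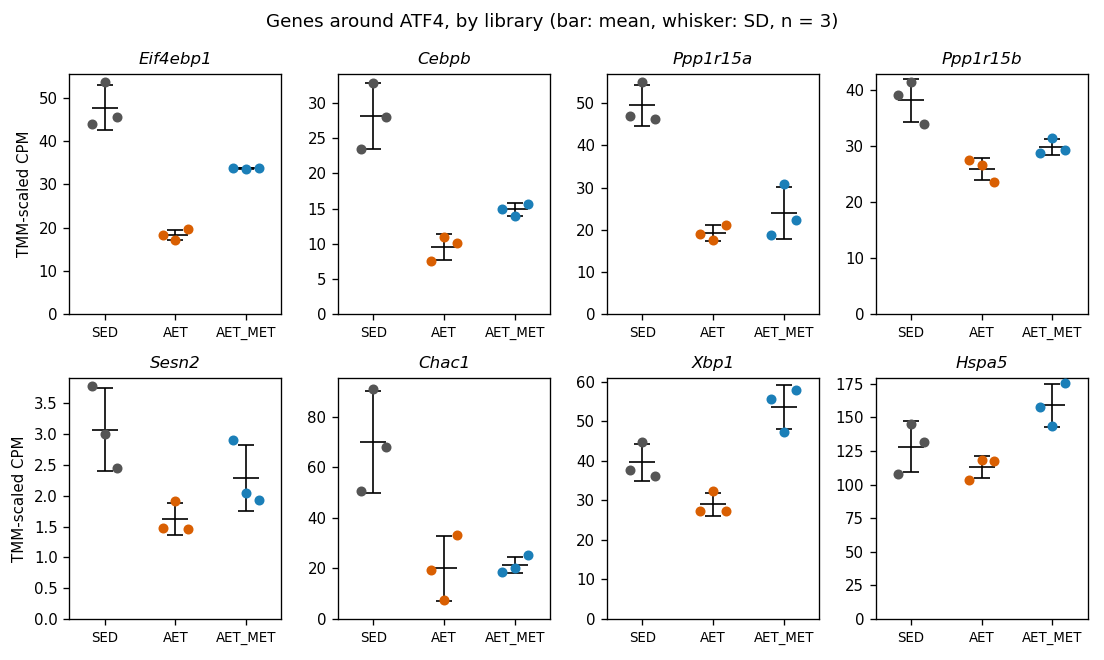
TMM-scaled CPM of 8 genes around ATF4 in SED, AET and AET_MET, with vertical axes that start at 0; points are libraries, bars are means and whiskers are SD (n = 3). Eif4ebp1 and Cebpb lie lowest in AET and between the others in AET_MET, Ppp1r15a and Chac1 lie low in both trained groups, and Xbp1 and Hspa5 lie highest in AET_MET.

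Among other targets attributed to ATF4, a share fell in trained muscle. Of 33 such genes tested, 11 were lower and 0 higher in AET against SED, beside 6.45% and 5.82% of all genes. At an unadjusted p under 0.05 in edgeR, 16 were lower and 0 higher. The share of all genes at that unadjusted threshold was not computed. The median log2 change was -0.31 beside 0.011 over all genes. The 11 included Cebpb, a C/EBP partner of ATF4, which was at 23.4, 32.9 and 28.04 CPM in SED and 7.49, 11.01 and 10.2 in AET (log2 change -1.55 ± 0.15, edgeR adjusted p = 0.000153). Eif4ebp1, a repressor of translation initiation, was at 44.0, 53.8 and 45.5 CPM in SED and 18.4, 17.3 and 19.6 in AET. Gpt2, the mitochondrial alanine aminotransferase, was at 347, 482 and 287 CPM in SED and 176, 183 and 159 in AET (log2 change -1.11 ± 0.17, edgeR adjusted p = 0.00372). Cth, which makes cysteine from cystathionine, was at 3.12, 2.38 and 3.27 CPM in SED and 0.764, 1.33 and 1.09 in AET (log2 change -1.44 ± 0.29, edgeR adjusted p = 0.00761). Map1lc3b and Sqstm1, both of autophagy, were at 129 to 149 and 471 to 542 CPM in SED and at 91.2 to 96.6 and 363 to 387 in AET.

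Less firm were the calls of Sesn2, a brake on mTORC1, and Stc2, a secreted glycoprotein. Sesn2 was at 3.78, 3.00 and 2.44 CPM in SED and 1.48, 1.91 and 1.46 in AET (log2 change -0.92 ± 0.23, edgeR adjusted p = 0.022), and its call was lost without SED replicates 1 or 2 or AET replicates 1 or 3 (adjusted p 0.0578 to 0.0904). Stc2 was at 2.22, 2.69 and 1.61 CPM in SED and 1.05, 0.664 and 1.14 in AET (log2 change -1.20 ± 0.29, edgeR adjusted p = 0.0188), and its call was lost without SED replicates 1 or 2 or AET replicate 2 (adjusted p 0.0507 to 0.084). Ppp1r15a, Bbc3 and Herpud1 complete the 11. Many of these genes have other known regulators, the list overlaps the others named here, and it was drawn up with results of these data known.

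Of the targets that were not called, Chac1 and Ddit4 differed most between AET and SED. Chac1, which degrades glutathione, was at 50.7, 91.0 and 68.2 CPM in SED, 19.4, 7.46 and 33.3 in AET and 18.8, 20.3 and 25.1 in AET_MET. Both trained groups lay below SED without overlap, with log2 changes of -1.80 ± 0.52 (edgeR adjusted p = 0.0756; 0.00799 to 0.191 over the alternatives) and -1.71 ± 0.52 (edgeR adjusted p = 0.135; 0.0199 to 0.309). Ddit4, an inhibitor of mTORC1, was at 18.1, 143 and 27.0 CPM in SED, 3.15, 5.23 and 3.25 in AET and 4.75, 16.5 and 10.9 in AET_MET. SED replicate 2 held several times the Ddit4 of the other SED libraries, and without it the log2 change in AET was -2.53 and likewise not called. With it the log2 change in AET was -4.01 ± 1.01 (edgeR adjusted p = 0.0539), and DESeq2 gave 7.65e-05 (7.65e-05 to 0.16 over the alternatives).

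In AET_MET against SED, 5 of the 33 targets were lower and 0 higher, beside 2.42% and 2.17% of all genes. At an unadjusted p under 0.05 in edgeR, 13 were lower and 4 higher. Without AET_MET replicate 3, 2 of the 33 were called. The 5 with all libraries were Cebpb (log2 change -0.92 ± 0.15, edgeR adjusted p = 0.00719), Eif4ebp1 (-0.50 ± 0.087, 0.00823), Ppp1r15a, Map1lc3b and Cth. The call of Cth (log2 change -1.61 ± 0.30, edgeR adjusted p = 0.0119) was lost without AET_MET replicate 3 (adjusted p 0.0755), and that of Map1lc3b (-0.41 ± 0.076, 0.0112) without AET_MET replicates 1 or 3 (adjusted p 0.0595 to 0.0608). In AET_MET against AET, 2 of 33 were higher and 0 lower, beside 1.66% and 1.77% of all genes. At an unadjusted p under 0.05 in edgeR, 11 were higher and 1 lower. The share of all genes at that unadjusted threshold was not computed for either comparison. The count of called targets in AET_MET against AET was 3 without SED replicate 2. It was 1 without SED replicate 3, AET replicate 1 or 3, or any 1 of the AET_MET libraries. Eif4ebp1 was at 33.8, 33.6 and 33.9 CPM in AET_MET, above every AET and below every SED library (log2 change 0.87 ± 0.089 against AET, edgeR adjusted p = 0.00172). Cebpb was at 14.99, 13.9 and 15.7 CPM, also between the groups (log2 change 0.63 ± 0.15, edgeR adjusted p = 0.0431); its call was lost without SED replicate 3, AET replicates 1 or 3 or AET_MET replicates 1, 2 or 3 (adjusted p 0.066 to 0.169), and limma voom did not make it (adjusted p = 0.062; 0.006 to 0.169 over the alternatives). DESeq2 called 13, 10 and 5 of the 33 in the 3 comparisons, beside 1694, 897 and 876 of 13928 genes. The calls of limma voom were 14, 6 and 1 of the 33, beside 1696, 529 and 429 of 13944 genes. The comparisons share control libraries, so their calls are not independent of each other.

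The amino acid transporters among the listed ATF4 targets were not called. Slc7a5, the light chain of the large neutral amino acid transporter, lay at 1.37 to 2.60 CPM in SED, 1.38 to 1.91 in AET and 2.13 to 3.10 in AET_MET. Its heavy chain Slc3a2 lay at 16.1 to 22.3, 15.01 to 16.1 and 17.3 to 19.2 CPM. For both chains every AET_MET library was above every AET library, with an unadjusted p under 0.05 in edgeR. Slc3a2 in AET against SED had an edgeR adjusted p of 0.0544, and 2 of 18 alternatives called it. Slc7a11, the cystine transporter, lay at 0.220 to 0.662, 0.156 to 0.382 and 0.185 to 0.308 CPM and was too low to test.

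Of 21 serine and one-carbon genes tested, 4 were lower and 0 higher in AET against SED, beside 6.45% and 5.82% of all genes. Aldh1l1, Cth and Shmt1 were among the 4. Against SED, 2 were lower in AET_MET, beside 2.42%, and against AET 1 was lower, beside 1.77%. Shmt1, the cytosolic serine hydroxymethyltransferase, was at 6.25 to 7.37 CPM in SED and 4.92 to 5.35 in AET, and its call was lost without SED replicates 1 or 3 or AET replicates 1, 2 or 3 (adjusted p 0.0596 to 0.1). In all, 8 of 18 alternatives did not call Shmt1, DESeq2 among them (adjusted p = 0.0554). Aldh1l1, a cytosolic folate enzyme, was at 7.33 to 8.94 and 4.38 to 5.50 CPM. The mitochondrial one-carbon enzymes listed as ATF4 targets were not called. Shmt2 lay at 9.82 to 10.8 CPM in SED, 9.10 to 10.7 in AET and 9.11 to 9.54 in AET_MET, and Aldh1l2 at 3.08 to 7.13, 2.91 to 4.25 and 3.32 to 4.77. Mthfd1l lay below 0.7 CPM. Psph, the last enzyme of serine synthesis, lay at 3.52 to 4.11, 3.20 to 4.22 and 4.40 to 6.46 CPM with no call. Its AET_MET libraries were above all others, with an unadjusted p under 0.05 in edgeR against SED and against AET.

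Proline synthesis had no call either, with Pycr1 at 1.497 to 1.84, 1.19 to 2.42 and 1.44 to 1.84 CPM and Aldh18a1 at 1.51 to 4.09, 3.33 to 4.30 and 2.73 to 5.92 in SED, AET and AET_MET. Of 12 genes for asparagine, aspartate and glutamine enzymes, Gpt2 and Glul fell in AET, beside 6.45% of all genes. Glul, which encodes glutamine synthetase, was at 851, 1040.0 and 982 CPM in SED, 159, 199.7 and 155 in AET and 211, 570.5 and 302 in AET_MET (log2 change -2.49 ± 0.36 for AET against SED, edgeR adjusted p = 0.0079). Glul is not on the list of ATF4 targets used here. Of 20 cytosolic aminoacyl-tRNA synthetases, Vars alone was called in AET against SED, a share near the 6.45% of all genes called lower. It went from 25.3 to 31.6 CPM in SED to 19.5 to 20.6 in AET (log2 change -0.46 ± 0.092, edgeR adjusted p = 0.00752), and the median change over the 20 was -0.17 beside 0.011 over all genes.

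**Figure D5:**
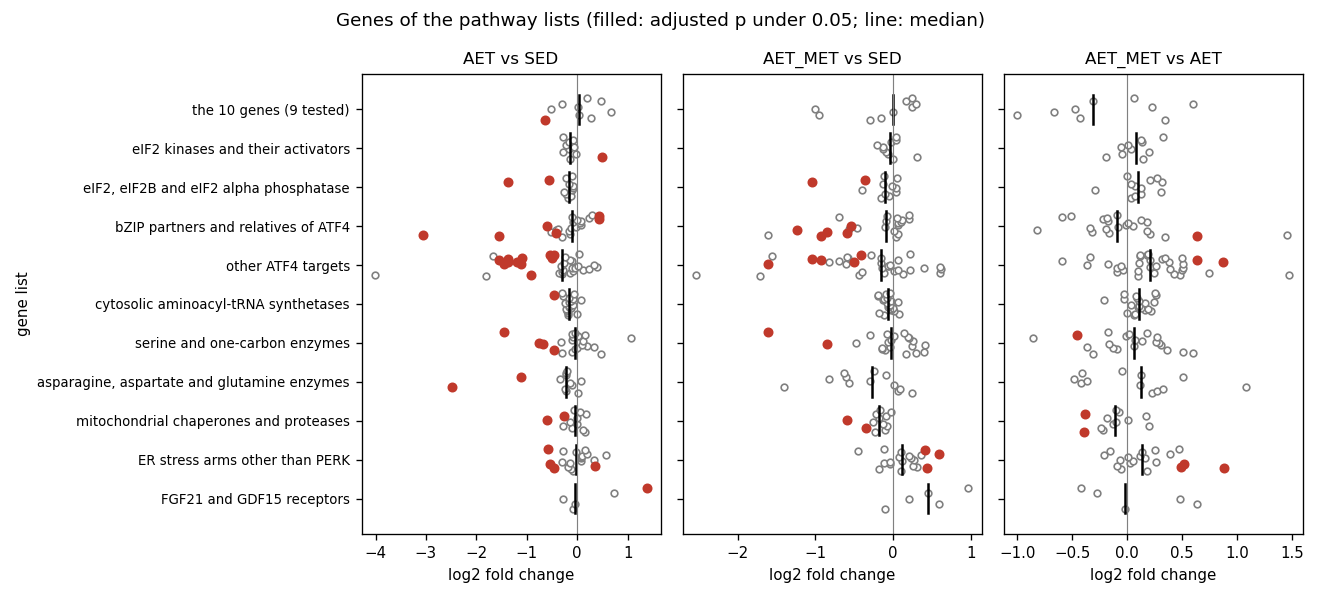
Each point is the log2 fold change of 1 tested gene in AET vs SED, AET_MET vs SED or AET_MET vs AET, by gene list; filled points have an edgeR adjusted p under 0.05 and the black line is the list's median. In AET vs SED, 11 of 33 points of the other ATF4 targets and 1 of 9 of the genes described here are filled below 0. Of all genes, 6.45% were called lower there.

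Genes of neighbouring stress pathways were also called. Xbp1, the factor of the IRE1 arm of the unfolded protein response, was at 37.8, 44.8 and 36.2 CPM in SED, 27.3, 32.4 and 27.2 in AET and 55.5, 47.3 and 58.0 in AET_MET, so metformin libraries lay above sedentary ones and trained libraries below. The log2 change of AET_MET against AET was 0.89 ± 0.11 (edgeR adjusted p = 0.00314) and was called under all 18 alternatives. Against SED the change was -0.45 ± 0.11 in AET (edgeR adjusted p = 0.0174) and 0.44 ± 0.11 in AET_MET (edgeR adjusted p = 0.0373). The first was lost without SED replicate 2 or AET replicates 1 or 3 (adjusted p 0.0722 to 0.0767), and the second without SED replicates 1 or 3, AET replicates 1 or 3 or AET_MET replicates 1 or 3 (adjusted p 0.0526 to 0.184). Hspa5, the chaperone BiP of the endoplasmic reticulum, was at 104, 118 and 117 CPM in AET and 158, 144 and 175 in AET_MET (log2 change 0.49 ± 0.11, edgeR adjusted p = 0.0336), a call lost without AET replicates 1, 2 or 3 or AET_MET replicates 1, 2 or 3 (adjusted p 0.0578 to 0.155). Neither trained group differed from SED by a call in Hspa5. Of 19 genes of the other arms of endoplasmic reticulum stress, 3 were higher and 0 lower in AET_MET against AET, beside 1.66% and 1.77% of all genes. Against SED, 3 were higher and 0 lower in AET_MET, beside 2.17% and 2.42%. In AET 1 was higher and 3 were lower, beside 5.82% and 6.45%. Dnajb9 was among those lower in AET, called under all 18 alternatives with log2 changes from -0.62 to -0.44.

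Of 12 mitochondrial chaperones and proteases, Clpx and Yme1l1 fell in AET, beside 6.45% of all genes, with 5 estimates above 0 and 7 below. Against SED, all 12 estimates were below 0 in AET_MET. There 2 were called, Clpx and Hspa9, beside 2.42% of all genes, and 9 of 18 alternatives did not call Hspa9. With metformin against AET, 2 were lower, Hspd1 and Afg3l2, beside 1.77%. Clpx, the unfoldase of a matrix protease, was at 88.4, 91.2 and 102 CPM in SED, 55.5, 60.5 and 69.0 in AET and 58.7, 69.5 and 58.2 in AET_MET (log2 change -0.61 ± 0.10 and -0.60 ± 0.10 against SED, edgeR adjusted p = 0.00239 and 0.00764). Yme1l1, an inner membrane protease, was at 81.4 to 86.5 CPM in SED and 64.8 to 73.9 in AET, and 11 of 18 alternatives did not call it, among them those without SED replicates 1, 2 or 3, AET replicates 1 or 3 or AET_MET replicates 1 or 2 (adjusted p 0.0519 to 0.11). The matrix chaperone Hspd1 was at 136 to 166 CPM in AET and 109 to 116 in AET_MET (log2 change -0.39 ± 0.087, edgeR adjusted p = 0.0319), a call lost without AET replicate 3 or AET_MET replicates 1, 2 or 3 (adjusted p 0.0663 to 0.129).

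Among the bZIP relatives, Nfe2l2, the NRF2 factor of the antioxidant response, fell in AET from 46.2, 56.2 and 42.1 to 29.9, 33.5 and 31.8 CPM (log2 change -0.60 ± 0.10, edgeR adjusted p = 0.00237). Cebpg, another partner of ATF4, lay at 42.3 to 44.5 CPM in SED, 36.5 to 42.3 in AET and 43.2 to 47.9 in AET_MET with no call. Cebpd was at 30.3, 82.4 and 42.9 CPM in SED and 6.40, 5.23 and 6.98 in AET (log2 change -3.07 ± 0.51, edgeR adjusted p = 0.014), and its call was lost without AET replicates 1, 2 or 3 (adjusted p 0.0517 to 0.0602). Creb1 rose from 22.4, 20.6 and 21.6 to 29.2, 29.6 and 28.3 CPM (log2 change 0.43 ± 0.080, edgeR adjusted p = 0.00469). In all, 4 of 22 tested genes of this list were lower and 2 higher in AET against SED, beside 6.45% and 5.82% of all genes. The 2 higher were Creb1 and Trib1. Trib1 is on the list but is not a bZIP factor, and DESeq2 did not call it. For AET_MET against SED 5 were lower and 0 higher, beside 2.42% and 2.17%. Nfe2l2 was among the 5 (edgeR adjusted p = 0.0104), a call lost without AET_MET replicate 3 (adjusted p 0.0639). Against AET, 1 was higher and 0 lower in AET_MET, beside 1.66% and 1.77%.

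The 5 genes whose log2 CPM followed Atf4 most closely over the 9 libraries were Bnip3, Sqstm1, Cebpb, Nop2 and Mospd2, with Pearson r from 0.973 to 0.982 and Spearman rho from 0.900 to 1. The libraries fall into 3 groups that Atf4 separates, so likeness within groups cannot be told apart from the shared order of the groups, and no p is given. Bnip3, a mitophagy receptor, was at 221, 276 and 247 CPM in SED, 149, 156 and 168 in AET and 184, 196 and 202 in AET_MET. For the other 8 tested genes described here, r with Atf4 ran from -0.63 for Phgdh to 0.33 for Trib3 over the same 9 libraries.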

How the data were processed

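RNA of mouse gastrocnemius (3 groups of 3 libraries) was sequenced after SMARTer mRNA library preparation, per the labels' protocols. The deposited values are expected counts per gene. Per the submitters' processing notes, the tools were STAR 2.5.3a, RSEM 1.3.0 and edgeR 3.34.0 with GRCm38; the sources used here name neither the annotation release nor whether reads were counted by strand. From 4.85% to 5.53% of values per library were not whole, and all were rounded. Gene symbols, exon lengths and coordinates come from GENCODE M21 (GRCm38), which matched 52083 of 55416 identifiers, and promoter letters from RefSeq. No 2 libraries of a group were copies of each other (chi-square per degree of freedom at least 15.7), which does not show that they came from different mice.

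All 9 libraries were fitted with edgeR 4.0.16 in R 4.3.3 (filterByExpr, TMM scaling, robust quasi-likelihood test, Benjamini-Hochberg adjustment over 13944 genes, 6 residual degrees of freedom), and a gene was called at an adjusted p under 0.05. The fit was tested on simulated data. The genes given a change there had more counts on average than Trib3, Asns, Psat1, Phgdh or Fgf21, and the changes were larger than that of Atf4. That test therefore does not cover genes so rare or changes so small. Alternatives were DESeq2 1.42.0, limma voom 3.58.1, other scalings and filters, the 2 groups compared alone, a replicate block, and leaving out each library. Picked for naming were the genes described here, a fixed panel of pathway genes, up to 4 called genes per list and comparison by p, and the 5 genes closest to Atf4. Some of the panel, Nupr1 and Vldlr, and some of the called genes are not described. Bbc3, Herpud1 and Trib1 were named after their values were seen. The genes and lists were chosen with earlier results of these data known. A result on a further gene is not reported here.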

Additional observations from a re-analysis of the deposited data

Results flagged for a closer look

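In 8 of the 160 tested genes of all pathway lists (5%, beside 3.43% of all genes), the change against SED differed between AET and AET_MET, by the edgeR test of AET_MET against AET in the fit over all 9 libraries. None of the 9 tested genes described in the report was among them. The log2 difference was 0.87 for Eif4ebp1 (edgeR adjusted p = 0.00172), 0.63 for Cebpb (0.0431), 0.89 for Xbp1 (0.00314), 0.49 for Hspa5 (0.0336) and 0.51 for Dnajb9 (0.0247), all higher with metformin. It was -0.45 for Dld, a subunit shared by the glycine cleavage system and mitochondrial dehydrogenases (0.0246), -0.39 for Hspd1 (0.0319) and -0.39 for Afg3l2, an inner membrane protease (0.0468), all lower with metformin. The groups compared did not overlap for Xbp1, at 27.2 to 32.4 CPM in AET and 47.3 to 58.0 in AET_MET, nor for Dld, at 169.6 to 208 and 129 to 144 CPM. Of the 8 calls, those of Eif4ebp1 and Xbp1 were made under all 18 alternatives; Afg3l2 was called under 7 of 18. The call of Dnajb9 was lost without AET replicates 1, 2 or 3 or AET_MET replicates 1 or 3 (adjusted p 0.0627 to 0.125), and that of Dld without AET replicates 1 or 3 or AET_MET replicates 1 or 3 (adjusted p 0.0544 to 0.109).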

How the results depend on the processing

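The fall of Atf4 in AET was called under all 18 alternatives, and the count of 1 among the 9 tested genes was the same in each. In AET_MET against SED the count of 0 became 2 with DESeq2 and 1 without a filter, and in AET_MET against AET it became 2 with DESeq2 and 1 each with library sizes alone, without a filter, with at least 5 CPM in 3 libraries and with only the 2 groups compared. The cause was not tested. The other ATF4 targets called in AET_MET against SED went from 5 to 10 with DESeq2, and in AET_MET against AET from 2 to 5 with DESeq2, 1 with limma voom, 4 with library sizes alone and 4 without a filter. All genes called in AET_MET against SED went from 640 to 897 with DESeq2 and 779 without a filter. In AET_MET against AET all genes called went from 478 to 876 with DESeq2, 767 with library sizes alone and 731 without a filter. There they were 429 with limma voom, 635 with at least 5 CPM in 3 libraries and 461 with only the 2 groups compared. Leaving out 1 library gave 934 to 1509, 141 to 655 and 23 to 461 genes in the 3 comparisons, the lowest without AET replicate 1, AET_MET replicate 3 and AET_MET replicate 3. It gave 0 to 2 of the 9 genes in AET_MET against SED and 0 to 1 in AET_MET against AET, the higher count each time without SED replicate 1, and 2 to 6 and 1 to 3 of the other targets there. Library sizes alone moved the median of all genes in AET_MET against SED by 0.1006, to 0.1032, on the log2 scale. The calls then split into 684 higher and 176 lower, beside 303 and 337, and in AET_MET against AET into 611 and 156, beside 231 and 247; in AET against SED upper-quartile scaling gave 980 and 711, beside 812 and 900. Estimates of uncalled genes changed sign when 1 library was left out. For AET against SED the ranges were -0.29 to 0.27 for Atf3, -0.28 to 0.48 for Asns, -0.64 to 0.022 for Psat1 and -0.064 to 0.34 for Mthfd2. For AET_MET against SED they were -0.39 to 0.19 for Atf5, -0.23 to 0.31 for Ddit3, -0.094 to 0.71 for Asns, -0.038 to 0.62 for Psat1 and -0.38 to 0.38 for Phgdh, and for AET_MET against AET -0.11 to 0.54 for Asns and -0.080 to 0.27 for Mthfd2. Ddit3 in AET_MET against SED was also -0.0001 with RLE size factors and -0.0091 without a filter. With at least 5 CPM in 3 libraries, Atf4 and Atf5 were the ones left to test. The replicate numbers of the labels paired the libraries weakly at most: the correlation of same-numbered deviations ran from -0.051 to 0.18. The own number matched best in 4 of 9 pairs, among them all those between SED and AET (r of 0.083, 0.026 and 0.11). With the replicate block, 1530, 535 and 358 genes were called, and 1, 0 and 0 of the 9 genes.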

Other observations

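Ret, Jun and Junb are described here after their values were seen. Ret, the receptor kinase that signals for GDF15 together with its brain receptor and for GDNF-family ligands elsewhere, was at 1.04, 2.03 and 1.03 CPM in SED, 3.82, 3.83 and 3.16 in AET and 3.27, 2.27 and 2.60 in AET_MET. It rose in AET against SED (log2 change 1.39 ± 0.26, edgeR adjusted p = 0.00489) and was called there under all 17 alternatives that tested it. The Schwann cell markers, among the cells in muscle outside the fibers, also summed higher in AET (118 to 199 CPM) than in SED (64.9 to 73.9 CPM), and their part in the level of Ret was not tested. Jun, a subunit of the AP-1 factor that can pair with ATF proteins, was at 98.2, 119 and 105 CPM in SED, 78.3, 88.5 and 74.9 in AET and 67.2, 80.0 and 67.8 in AET_MET. Jun was called lower in AET against SED (edgeR adjusted p = 0.0163), lost without SED replicate 2 or AET replicates 1 or 3 (adjusted p 0.0611 to 0.073). Its log2 change in AET_MET against SED was -0.58 ± 0.10 (edgeR adjusted p = 0.00764), lost without AET_MET replicate 3 (adjusted p 0.0592). That of Junb was -0.85 ± 0.17 (edgeR adjusted p = 0.0154), lost without SED replicate 2 or AET_MET replicate 3 (adjusted p 0.0671 to 0.0992).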
